A study of Mus musculus with 5 samples.

Results

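Calponins, transgelins, smooth muscle actins, tropomyosins and the myosin light chain Myl9 are small proteins of the actin filament and of the myosin that pulls on it. The 10 genes examined here were Cnn1, Cnn2, Cnn3, Tagln, Tagln2, Acta2, Actg2, Tpm1, Tpm2 and Myl9, out of 49671 genes in the count table. They were found by gene name, and the list was chosen by a reading of the SO− against SO+ differences in these same embryos. The differences between genotypes below are therefore descriptions of the members. Calls of members by the fit across all genes are counted only beside the share of all genes called, and are not independent evidence.

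RNA had been sequenced by SmartSeq2 from 2 SO+ and 3 SO− single embryos at about E6.75, on a mixed strain background, each sample holding both the epiblast and the visceral endoderm (VE), with the extra-embryonic ectoderm (ExE) dissected away. SO− embryos were Sox2Cre+/-; Oct4 fl/-, with a floxed and a null copy of Oct4. SO+ embryos were Sox2Cre-/-; Oct4 fl/+, so that every embryo carried a floxed allele, and the Cre transgene and the null allele were found in SO− embryos only. Cre under the Sox2 promoter acts mainly in the epiblast, and the VE of each sample is outside its main domain.

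In non-muscle cells, actin and myosin II form a contractile cortex. Tropomyosins lie along the filament and govern which proteins reach it, calponins and transgelins bind its side, and phosphorylation of the regulatory light chain (Myl9, Myl12a and Myl12b) switches the myosin on. Calponin 1, transgelin (SM22α), smooth muscle α- and γ-actin and Myl9 are the forms known from differentiated smooth muscle, whereas Cnn2, Cnn3 and Tagln2 are found in many other cells. Serum response factor (SRF), which binds a motif called the CArG box, drives many of these genes. In the gastrulating embryo, apical contraction and rounding of epiblast cells accompany their passage through the primitive streak.

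Total counts were 27047148 and 27538119 in the SO+ embryos and from 1117566 to 4191498 in the SO− embryos, the smallest library being SO− embryo 2. Levels are given as CPM, the count scaled to the library total, and 3 counts, taken as the floor of detection, were worth 0.109 and 0.111 CPM in the SO+ embryos against 0.726, 2.68 and 0.716 CPM in SO− embryos 1, 2 and 3. All SO− libraries shared one second index and both SO+ libraries another, and the index and depth cannot be told apart from genotype. Pou5f1, which encodes Oct4, had 920.2 and 435 CPM in SO+ embryos 1 and 2 and 27.8, 12.5 and 43.7 CPM in SO− embryos 1, 2 and 3. Marker lists showed both tissues: 12 VE genes, led by Apoa1, summed to between 3274 and 3678 CPM in SO+ embryos and between 3137 and 5025 CPM in SO− embryos, and 8 epiblast genes, led by Dnmt3b, to between 5199 and 6411 CPM against 2537 and 3679 CPM. The epiblast list contains Pou5f1, and without it the ranges were 4763 to 5491 CPM and 2524 to 3636 CPM. The members of the epiblast list did not move alike. Dnmt3b (3983 and 3264 CPM against 1447 to 2286 CPM) and Utf1 (511 and 393 CPM against 65.3 to 149 CPM) were lower in every SO− embryo, whereas Sox2 was higher (7.48 and 7.88 CPM against 9.84 to 12.9 CPM) and Fgf5 and Epcam overlapped between genotypes. In whole-tissue RNA, fewer cells of a type and less RNA per cell cannot be told apart.

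Each embryo held the genes of the non-muscle cortex at high level and those of smooth muscle at low level or not at all. Between 6 and 9 of the 10 genes had a count in each embryo, and Cnn3, Tagln2 and Tpm1 together held between 86.7% and 90.3% of the counts of the 10. Per kilobase of merged exon (FPKM, from counts and the length of the gene's exons), the means over the 5 embryos were 98.8 FPKM for Cnn3, 93.8 FPKM for Tagln2, 31.5 FPKM for Tpm1, 26.9 FPKM for Cnn2, 6.37 FPKM for Tpm2, 3.55 FPKM for Myl9, 1.47 FPKM for Cnn1, 0.159 FPKM for Tagln and 0.110 FPKM for Acta2, and Actg2 had no count. Tagln2 was above Tpm1, Tpm1 above Cnn2 and Cnn2 above Tpm2 in 5 of 5 embryos. Cnn3 and Tagln2 were not ordered, since Cnn3 was the higher in both SO+ embryos and in 1 SO− embryo. The lower neighbours were not ordered across all embryos either: Myl9 lay below Cnn1 in both SO+ embryos and above it in all 3 SO− embryos.

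**Figure D1:**
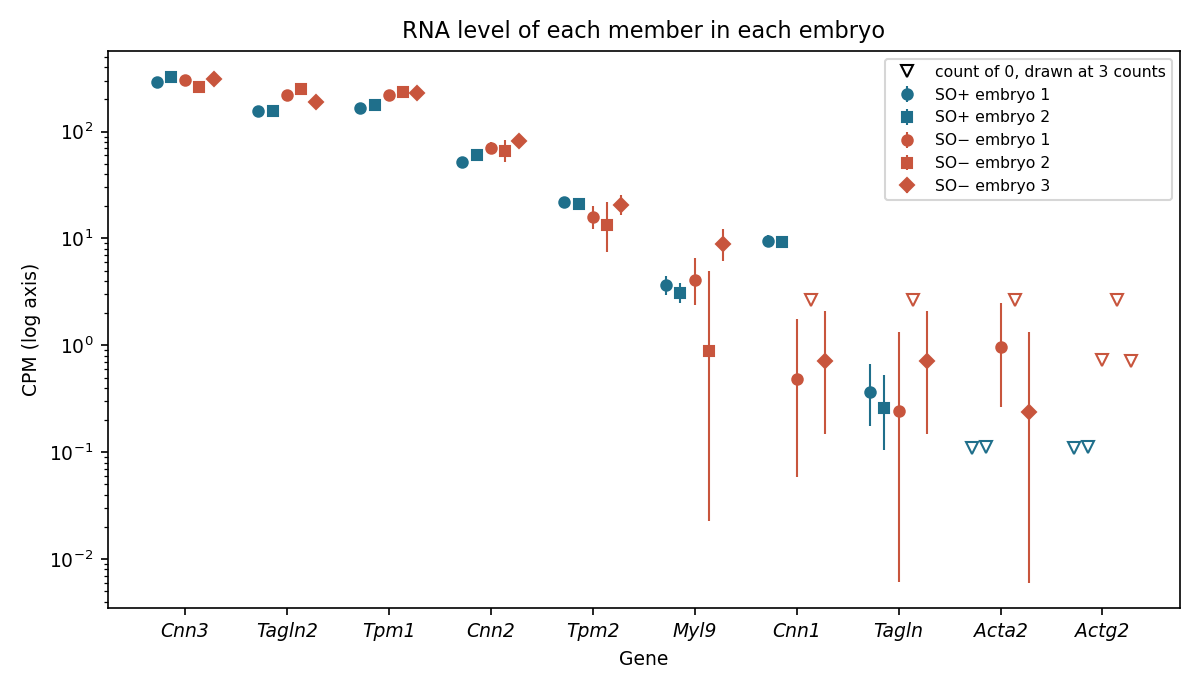
CPM of each of the 10 genes (log axis) in SO+ embryos (blue) and SO− embryos (red), with exact 95% Poisson intervals of the count and open triangles, drawn at 3 counts, for a count of 0. Cnn1 lies above 9 CPM in both SO+ embryos and at 0.484 and 0.716 CPM in SO− embryos 1 and 3. Its count of 0 in SO− embryo 2 is drawn at the floor of 2.68 CPM. Acta2 and Actg2 have no count in any SO+ embryo.

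The smooth muscle actins were close to absent. Acta2 (ENSMUSG00000035783), smooth muscle α-actin, is found on chromosome 19 (GRCm38, 34241090 to 34255590). No count fell on it in either SO+ embryo or in SO− embryo 2, with 4 in SO− embryo 1 and 1 in SO− embryo 3. The values of SO− embryos 1 and 3 come to 0.967 and 0.239 CPM, next to floors of 0.726 and 0.716 CPM. Actg2 (ENSMUSG00000059430, chromosome 6 from 83512905 to 83536265), the smooth muscle γ-actin of gut and uterus, had 0 counts in all 5 embryos, and the 3-count floor for a count of 0 is 0.109 CPM in the deepest library and 2.68 CPM in the shallowest. The name smooth muscle actin is thus not borne out by RNA in these samples. The cytoplasmic actins were the abundant ones: Actg1 held between 68.9% and 71.3% of the FPKM of the 6 actins and Actb between 28.5% and 31.0% in the 5 embryos. Actg1 was at 3536 ± 141 CPM (SD, n = 2) in SO+ and 3785 ± 366 CPM (SD, n = 3) in SO− embryos.

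Tagln (ENSMUSG00000032085, chromosome 9 from 45929619 to 45936058), transgelin or SM22α, was near the floor as well, with 10 and 7 counts in SO+ embryos 1 and 2 and 1, 0 and 3 in SO− embryos 1, 2 and 3. The SO− embryos lay on both sides of the SO+ values, from 0 to 0.716 CPM against 0.259 and 0.363 CPM. On the opposite strand, exons of Gm48529 share 1241 bases and those of Pcsk7 share 108 bases with Tagln. Whether counting used strand is not given in the sources used here, so that these few reads cannot be assigned with certainty. Acta2, Actg2 and Tagln had too few counts to enter the fit across genes. Of other muscle genes, Myh11, the smooth muscle myosin heavy chain, had at most 2 counts in an embryo and Lmod1, a leiomodin of smooth muscle, at most 4. Des (desmin of muscle intermediate filaments) was more abundant, between 6.84 and 11.1 CPM, and Myh6 (cardiac myosin heavy chain) lay between 1.79 and 7.81 CPM in the 5 embryos.

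Cnn1 was the gene of the 10 with the largest difference between genotypes. Basic calponin of smooth muscle, Cnn1 (ENSMUSG00000001349), is encoded on chromosome 9 (22099216 to 22109630). Its counts were 263 and 252 counts in SO+ embryos 1 and 2 and 2, 0 and 3 in SO− embryos 1, 2 and 3, which is 9.55 and 9.32 CPM against 0.484, 0 and 0.716 CPM. The SO+ embryos differed 1.03-fold from each other and the groups did not overlap. At the SO+ mean, read sampling alone would give 39.0, 10.5 and 39.5 counts in SO− embryos 1, 2 and 3. These expected counts leave out amplification, and the part of depth in the difference was not tested. Summed over embryos, 515 counts in SO+ stood against 5 in SO−, a rate 17.8 times higher, with a 95% interval from 7.59 to 55.1 that covers counting error only. The log2 fold change, SO− over SO+, was −4.15 (standard error 0.60), the 6th lowest of the 12067 genes fitted. No annotated gene overlapped the exons of Cnn1 and no transcript of another gene matched it at 95% identity over 100 bases.

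Within the calponins, Cnn1 held 2.53% and 2.87% of the family's FPKM in the SO+ embryos and at most 0.192% in an SO− embryo. Cnn3 (acidic calponin, ENSMUSG00000053931, chromosome 3 from 121426497 to 121458207) held between 75.7% and 79.6% in every embryo. It had 294 and 324 CPM in SO+ embryos 1 and 2 and 307, 261 and 313 CPM in SO− embryos 1, 2 and 3. The groups overlapped, with a log2 fold change of −0.06 (standard error 0.11), and the sign turned when SO+ embryo 2 or SO− embryo 2 was left out, to 0.014 and 0.013. Pseudogenes Gm17936 and Gm4815 resemble it above 95% identity, and part of its exons, 538 bases, is shared with Gm42928 on the other strand, which had 27 counts over the 5 embryos.

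Cnn2 (ENSMUSG00000004665, chromosome 10 from 79988584 to 79996062), the calponin of non-muscle and blood cells, had 52.5 and 60.8 CPM in SO+ embryos 1 and 2 and 70.9, 66.2 and 80.9 CPM in SO− embryos 1, 2 and 3. All 3 SO− embryos were above both SO+ embryos, with a log2 fold change of 0.38 (standard error 0.15). In SO− embryo 2 the Poisson interval, from 52.0 to 83.1 CPM, nonetheless covered the value of each SO+ embryo. Its share of calponin FPKM, which no scaling factor can alter, was 17.5% and 18.3% in SO+ embryos and between 22.2% and 24.1% in SO− embryos.

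Tagln2 (ENSMUSG00000026547, chromosome 1 from 172500047 to 172507380), the transgelin of non-muscle cells, made up between 95.1% and 98.8% of transgelin FPKM in each embryo. It had 157 and 155 CPM in SO+ embryos 1 and 2 and 221, 252 and 191 CPM in SO− embryos 1, 2 and 3. Both SO+ embryos lay below every SO− embryo and none of the Poisson intervals of the 2 genotypes met, although these cover the counting error of reads only. The log2 fold change was 0.50 (standard error 0.13), which is 1.41-fold. The SO− embryos spread 1.32-fold, more than the 1.02-fold of the SO+ pair.

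Among tropomyosins, Tpm1 (ENSMUSG00000032366, chromosome 9 from 67022590 to 67049406) was higher and Tpm2 (ENSMUSG00000028464, chromosome 4 from 43514711 to 43523765) lower in SO− embryos. Each gene is spliced into muscle and non-muscle forms, which gene counts do not separate. Tpm1 had 165 and 176 CPM in SO+ embryos 1 and 2 and 219.8, 233 and 227 CPM in SO− embryos 1, 2 and 3. It was the most even of the higher genes, with a 1.06-fold spread among SO− embryos, no contact between the intervals of the genotypes and a log2 fold change of 0.41 (standard error 0.11). Tpm2 was at 21.9 and 20.8 CPM in the SO+ pair against 16.0, 13.4 and 20.5 CPM in SO− embryos 1, 2 and 3. Its groups were apart by the narrow gap between SO+ embryo 2 and SO− embryo 3, which is within counting error, and the log2 fold change was −0.31 (standard error 0.25). In each embryo Tpm4 and Tpm3 outweighed both: Tpm4 held between 56.3% and 61.0% of tropomyosin FPKM, Tpm1 between 12.8% and 15.6%, and Tpm2 between 1.90% and 3.82%.

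Myl9 (ENSMUSG00000067818, chromosome 2 from 156775420 to 156781658), the regulatory light chain of smooth muscle and non-muscle myosin II, varied most among SO− embryos. It had 101 and 84 counts in SO+ embryos 1 and 2, equal to 3.67 and 3.11 CPM. In SO− embryos 1, 2 and 3 it had 17, 1 and 37 counts, or 4.11, 0.895 and 8.83 CPM, a 9.87-fold range with SO− embryo 2 below and embryo 3 above both SO+ embryos. The log2 fold change of 0.63 (standard error 0.60) fell to −0.17 without SO− embryo 3, so its direction rested on that embryo. Myl12b and Myl12a, the light chains of non-muscle myosin, held most of the family's FPKM, and the share of Myl9 was between 0.583% and 4.76%.

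**Figure D2:**
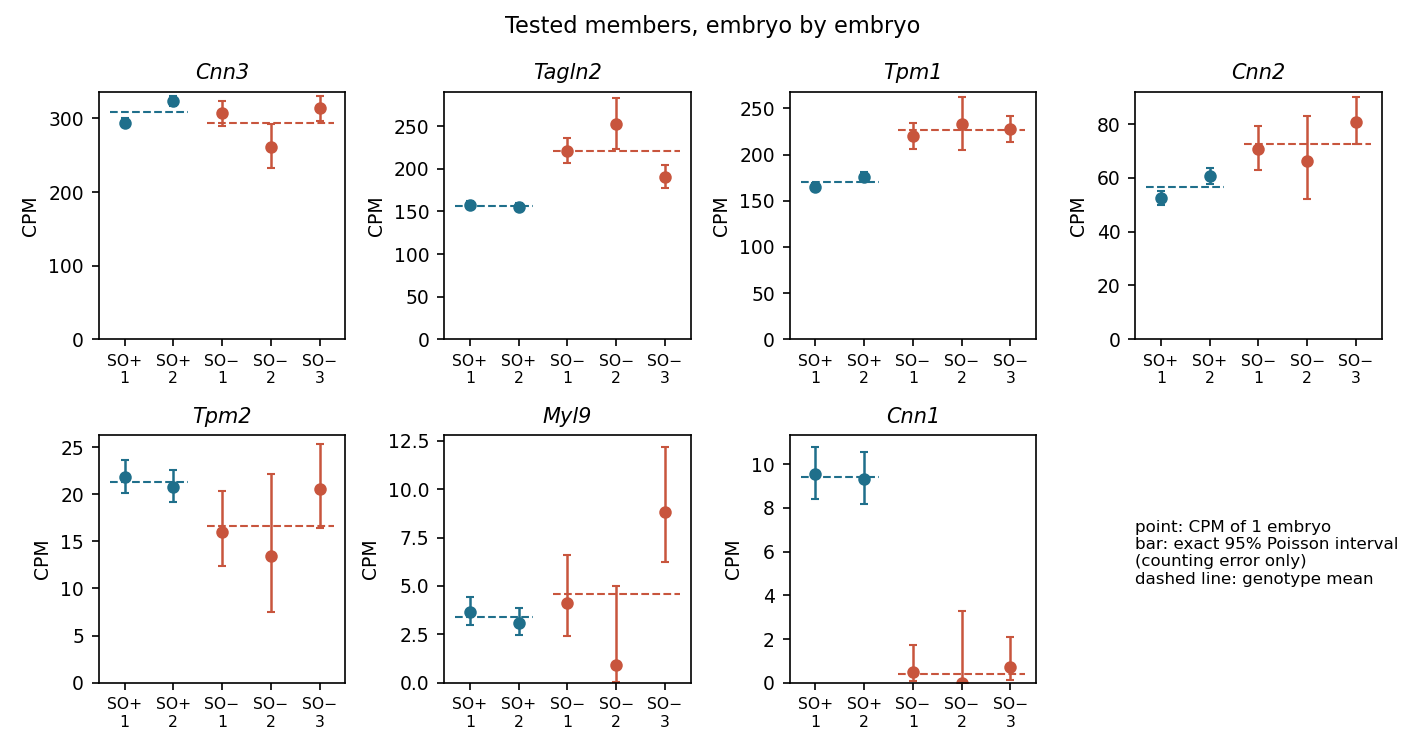
CPM of the 7 fitted genes in each embryo (linear axes from 0), with exact 95% Poisson intervals of the count and dashed lines at the genotype means. Tagln2 and Tpm1 are higher in all 3 SO− embryos without contact of the intervals, Cnn1 is lower in all 3, and Myl9 runs from 0.895 to 8.83 CPM within the SO− group.

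Of the 10 genes, 7 passed the expression filter. By edgeR at an adjusted p of 0.05, 1 of the 7 was called, Cnn1, where 2.35% of the 12067 genes tested were called in either direction and 0.928% lower in SO− embryos. By DESeq2, Cnn1, Tagln2 and Tpm1 were called, against 2.52% of the 15084 genes to which it gave an adjusted p. CPM of the genotypes did not overlap for 5 of the 7, 3 higher (Cnn2, Tagln2, Tpm1) and 2 lower (Cnn1, Tpm2) in SO− embryos, beside 29.5% of all tested genes, 13.9% higher and 15.6% lower. Nothing is read from these counts, because the list was drawn up with the same contrast in view. The median log2 fold change of the 7 was 0.38, against −0.0019 over all tested genes. With SO− embryo 1 left out, Cnn1 was no longer called while its log2 fold change was −4.09.

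**Figure D3:**
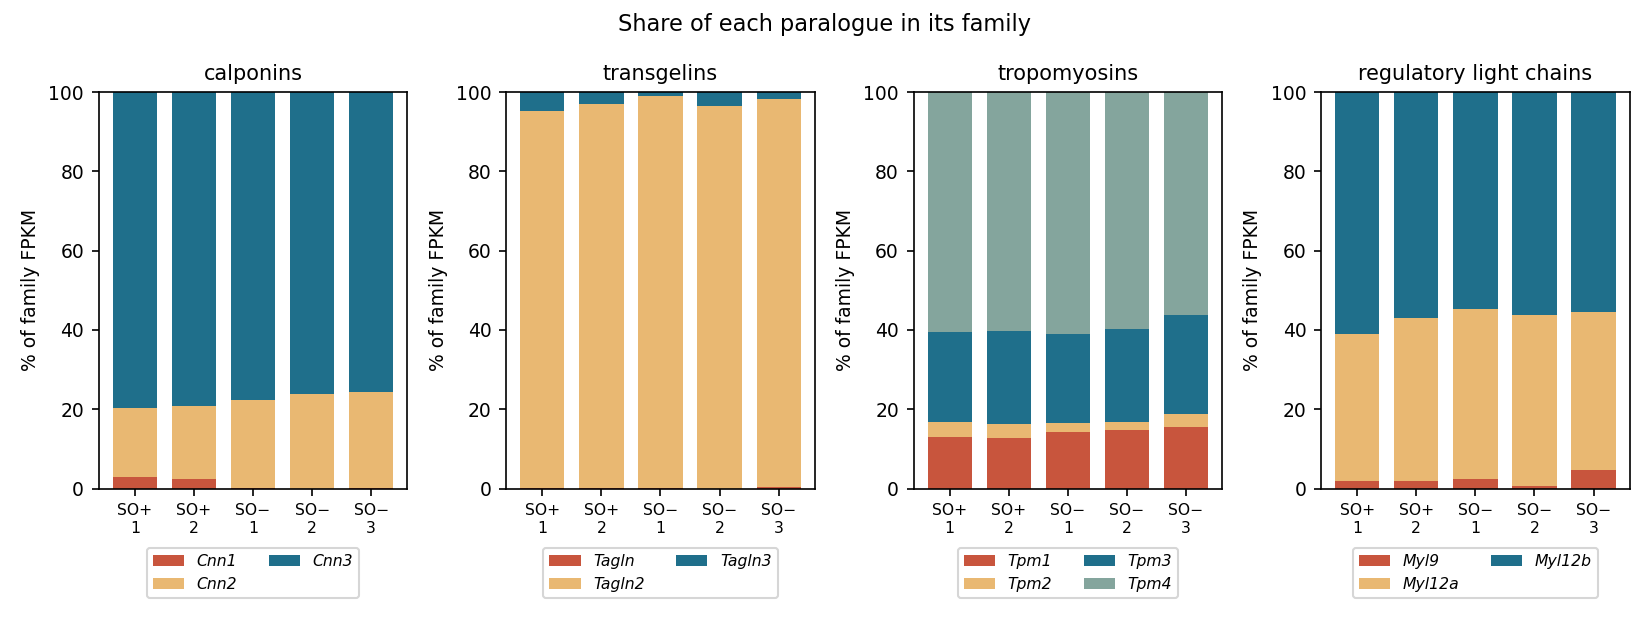
Share of each paralogue in the summed FPKM of its family (stacked bars, % of family FPKM) for calponins, transgelins, tropomyosins and regulatory light chains in the 5 embryos. Cnn1 is visible in the SO+ bars, at 2.87% and 2.53%, and is at most 0.192% in an SO− bar, and Cnn3, Tagln2, Tpm4 and Myl12b hold the largest shares in all 5 embryos.

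Promoter sequence was examined for 8 of the 10 genes with an entry in the RefSeq table for GRCm38.p6, in windows of 250 bases before to 50 after the start. The CArG box (C-C, 6 bases of A or T, G-G, its own reverse complement at the level of the pattern) was found in 2 of the 8, Myl9 and Cnn2, and in 1.63% of all 32851 windows. ATGCAAAT, the octamer bound by Oct4, was searched on both strands after the values were known. It was in none of the 8 and in 1.74% of all windows, and at that share 8 windows are too few for an absence to be read. The sequences are shown for Cnn1, the gene with the large difference, and for the pair with a match, from the first base of the window to the last one before the gene's annotated start. Myl9 is taken from chr2:156775214-156775419, Cnn2 from chr10:79988350-79988583 and Cnn1 from chr9:22099003-22099215, each on the plus strand, 5′ to 3′, with the CArG match in capitals.
Myl9: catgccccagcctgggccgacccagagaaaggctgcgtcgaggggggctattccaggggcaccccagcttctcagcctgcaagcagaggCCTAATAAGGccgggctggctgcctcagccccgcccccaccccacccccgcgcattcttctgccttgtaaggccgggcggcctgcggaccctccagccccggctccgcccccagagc
Cnn2: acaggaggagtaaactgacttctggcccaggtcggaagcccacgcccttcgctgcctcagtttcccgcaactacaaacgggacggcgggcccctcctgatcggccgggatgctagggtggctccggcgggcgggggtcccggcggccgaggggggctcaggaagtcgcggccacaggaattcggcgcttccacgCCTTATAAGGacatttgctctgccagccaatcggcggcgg
Cnn1: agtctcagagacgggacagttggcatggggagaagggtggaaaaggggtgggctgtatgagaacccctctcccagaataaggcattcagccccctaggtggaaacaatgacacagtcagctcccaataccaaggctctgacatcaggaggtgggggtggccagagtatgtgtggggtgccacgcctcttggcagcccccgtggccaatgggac

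The match in Myl9 began 117 bases and that in Cnn2 40 bases before the annotated start of the gene. Of the pair, Cnn2 was higher in all 3 SO− embryos and Myl9 overlapped between genotypes, while Cnn1 has no match in the window shown. A match is a run of letters and not a measured site, and its absence from this window says nothing about binding elsewhere.

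The rest of the actomyosin machinery was followed in 60 further genes, grouped by role, of which 52 could be tested. Cald1 alone was called by edgeR, with adjustment over all tested genes, where 283 of all 12067 tested genes were called. Of the 52, 39 had a log2 fold change above 0, with a median of 0.09, beside 5997 of the 12067 and a median of −0.0019 over all tested genes. Cald1 encodes caldesmon, which binds actin and tropomyosin and restrains myosin. It had 22.6 and 15.8 CPM in SO+ embryos 1 and 2 and 7.74, 9.84 and 5.01 CPM in SO− embryos 1, 2 and 3. All SO− embryos were below both SO+ embryos, and edgeR put the difference at −1.43 ± 0.34 on the log2 scale (standard error), with an adjusted p = 0.0436. The call was lost when any embryo but SO+ embryo 2 was left out (adjusted p from 0.142 to 0.256 from edgeR), and over all alternatives the adjusted p ran from 0.00885 to 0.256.

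Actins and myosin II chains gave no call. Actb and Actg1 had log2 fold changes of 0.08 (adjusted p = 0.829 from edgeR) and 0.10 (adjusted p = 0.700), and the 6 tested myosin chains lay between −0.15 and 0.21, with Myl12b at −0.15 (adjusted p = 0.669 from edgeR) and Myl12a at 0.04 (adjusted p = 0.936). The other tropomyosins, Tpm3 and Tpm4, were at 0.23 (adjusted p = 0.362 from edgeR) and 0.17 (adjusted p = 0.545). Tpm3, at 336.8 ± 12.9 CPM (SD, n = 3) in SO− and 288 ± 23.0 CPM (SD, n = 2) in SO+ embryos, did not overlap between genotypes.

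Enzymes that set myosin phosphorylation were likewise without a call. None of 12 tested genes passed, the most abundant being Rhoa (log2 fold change 0.01, adjusted p = 0.986 from edgeR), a small GTPase that promotes contractility, and Ppp1cb (0.0039, adjusted p = 0.997), the catalytic subunit of myosin phosphatase. Ppp1r14a, a phosphatase inhibitor of smooth muscle, had 35 and 34 counts in SO+ embryos 1 and 2 and 0, 0 and 5 in SO− embryos 1, 2 and 3, too few to be tested. Of 18 crosslinkers and adhesion proteins none passed and 14 were above 0, with Actn4 at 0.05 (adjusted p = 0.919 from edgeR) and Flna at −0.15 (adjusted p = 0.700). In the SRF list none of 8 tested genes passed, the most abundant being Cyr61 (0.60, adjusted p = 0.245 from edgeR) and Mkl2 (0.18, adjusted p = 0.854). Srf itself was at 16.5 and 11.4 CPM in the SO+ pair against 10.4, 9.84 and 9.30 CPM in SO− embryos 1, 2 and 3 (adjusted p = 0.547 from edgeR), and its cofactor Myocd was between 4.21 and 10.7 CPM in the 5 embryos. DESeq2 called 3 of the 60, namely Cald1, Pdlim5 and Zyx.

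**Figure D4:**
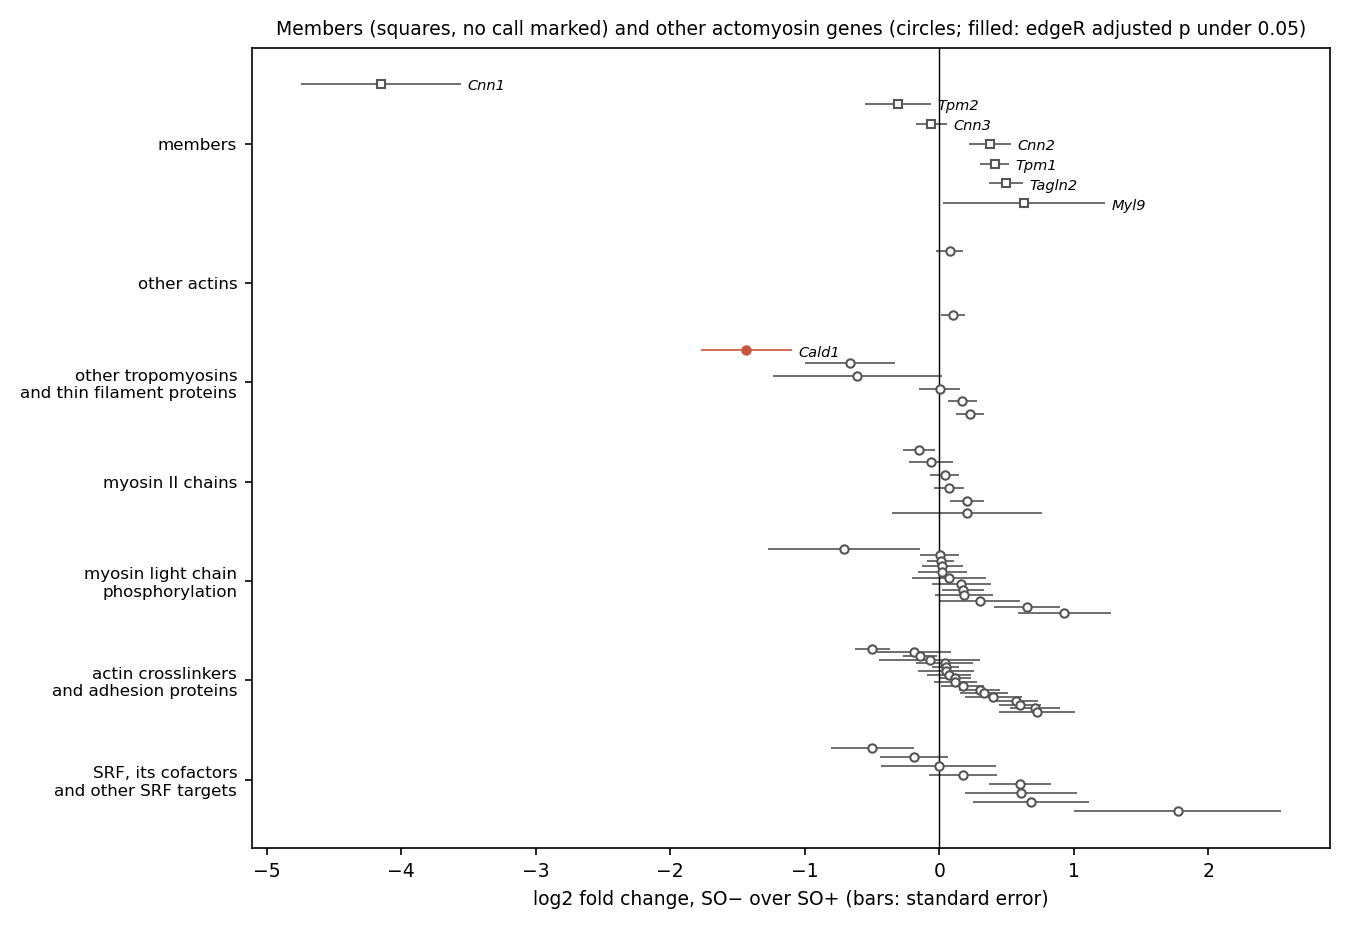
Log2 fold change, SO− over SO+, with standard errors, for the 7 fitted members and for 52 other actomyosin genes by role. Members are squares with no call marked, since they were selected on this contrast, and circles are the other genes, filled where the edgeR adjusted p is under 0.05. Cald1 at −1.43 is the filled circle, Cnn1 lies at −4.15 and the remaining members lie between −0.31 and 0.63.

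Markers of other tissues were measured beside these genes. In the 12-gene list of uterine smooth muscle and decidua, 11 genes had a count and the sums were 52.1 and 58.3 CPM in SO+ and from 79.4 to 84.9 CPM in SO− embryos. Most of it was Smtn, which is also among the crosslinkers above, and without Smtn, a split made after the values were seen, the ranges were 12.3 to 14.1 CPM and 14.3 to 20.1 CPM. The decidual hormone Prl8a2 was at 0 in all embryos and Myh11 and Lmod1 were as given above, whereas Des had 8.10 and 6.84 CPM in SO+ embryos 1 and 2 and 11.1, 8.05 and 10.02 CPM in SO− embryos 1, 2 and 3. Pgr, the progesterone receptor, had 1.27 and 1.66 CPM against 5.08, 3.58 and 3.58 CPM. Lum (lumican of connective tissue) had no count in SO+ embryos and 5, 2 and 10 counts in SO− embryos 1, 2 and 3. Other genes of the list were not higher in every SO− embryo. Dcn had 1.38 and 4.62 CPM in SO+ embryos 1 and 2 against 1.93, 0.895 and 1.91 CPM. Hoxa10, Synpo2 and Col3a1 overlapped between genotypes as well. In the blood list only Cd68 and Hba-a1 had counts, with sums of at most 1.91 CPM, and the β-globins Hbb-bs, Hbb-bt and Hbb-y, Hba-a2, Ptprc and Tyrobp were at 0. All 10 ExE markers had a count, summing to 22.6 and 29.5 CPM in SO+ and 41.4, 61.7 and 43.2 CPM in SO− embryos 1, 2 and 3. The 8 parietal endoderm genes, led by Sparc, summed to 499 and 511 CPM in SO+ and to 687, 756 and 631 CPM in SO− embryos 1, 2 and 3. The uterine, ExE and parietal endoderm sums, like Cnn2, Tagln2 and Tpm1, were higher in each SO− embryo than in either SO+ embryo. SO− embryo 2 had the highest Tagln2 and Tpm1 and the highest ExE and parietal endoderm sums, but not the highest Cnn2. The sum of the 10 mesoderm genes, led by Mixl1, overlapped between genotypes (252 and 502 CPM against 250.3 to 437 CPM). Its members did not move alike. Hand1 (1.09 and 2.74 CPM against 11.9 to 24.2 CPM) was higher in every SO− embryo. So were Kdr (0.0363 and 4.58 CPM against 8.35 to 17.9 CPM) and Bmp4 (4.43 and 3.85 CPM against 5.25 to 16.1 CPM). The other genes of this list, Mixl1 among them, overlapped between genotypes. Of the 8 early heart genes, led by Myh6 and with Nppa at 0, the sums were 11.5 and 12.3 CPM in SO+ and from 6.26 to 9.92 CPM in SO− embryos. Only Myh6 and Myl7 were lower in every SO− embryo. Tnni1, Myl4, Myh7, Nkx2-5 and Tnnt2 overlapped between genotypes. Myl4, Myh7, Nkx2-5 and Tnnt2 each had at most 14 counts over the 5 embryos. The epiblast and early heart sums were, like Cnn1, lower in each SO− embryo than in either SO+ embryo. The part of tissue content in the values of Cnn1, Cnn2, Tagln2 and Tpm1 was not tested.

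Genes with a pattern like Cnn1 over the 5 embryos were sought by the root mean square difference of log2(CPM + 1) values (TMM-scaled CPM, centred on each gene's mean), among tested genes averaging 3 or more in log2 CPM. The nearest were Nfasc (difference 0.184 on the log2 scale), Nefl (0.285) and Mtap7d3 (0.293). Nfasc had 22.4 and 18.5 CPM in SO+ embryos 1 and 2 and 2.66, 1.79 and 3.10 CPM in SO− embryos 1, 2 and 3. With a pseudocount of 5, none of the 3 was among the nearest to Cnn1. For Myl9 the nearest were Rassf3 (0.213), Dnmt3l (0.252) and Fam178b (0.261), and 1 of the 3 was listed with a pseudocount of 5. Acta2 and Tagln were set aside here because their pattern rests on at most 10 counts in an embryo.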

How the data were processed

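RNA of the epiblast and VE of 5 single embryos (2 SO+, 3 SO−) was amplified by SmartSeq2, which attaches no molecular identifiers. Intervals and floors therefore cover the counting error of reads only, leave out amplification and may be too narrow. After adapter removal (cutadapt), the authors used STAR for alignment to GRCm38 and HTSeq for counting over Ensembl genes, and deposited whole-number counts without normalization. Strand and duplicate handling are not given in the sources used here. Groups and replicate numbers came from the sample titles, and all 5 columns were used. Exon lengths and positions are from GENCODE M21 on the same build.

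Counts were tested with edgeR 4.0.16 in R 4.3.3 (TMM, filterByExpr, quasi-likelihood F test, genotype only), with Benjamini-Hochberg adjustment over 12067 genes and a threshold of 0.05. The standard error of a log2 fold change was obtained from its size and the F statistic (size over root F). Poisson intervals are exact at 95%. Alternatives were DESeq2 1.42.0, limma-voom (limma 3.58.1), other scalings and filters, thinning, the replicate block and each embryo left out. Similar transcripts were sought with blastn 2.17.0.

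The members and the gene lists were chosen with earlier results of these data known. Named genes were the 10 members, Pou5f1, called genes of the lists, the 2 most abundant genes of each list, the leading and absent markers (1 of them not reported here) and the 3 nearest patterns. Myh11, Lmod1, Ppp1r14a, Srf, Myocd, Des, Myh6 in the muscle comparison, Pgr, Lum, Utf1, Sox2, Fgf5, Epcam, Hba-a1, Pdlim5 and Zyx were named after their values were seen. The same holds for Hand1, Kdr, Bmp4, Dcn, Hoxa10, Synpo2 and Col3a1.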

Additional observations from a re-analysis of the deposited data

How the results depend on the processing

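With embryos left out in turn, edgeR called between 35 and 573 genes in all, against 283 with all embryos (35 without SO− embryo 2, 46 without SO− embryo 1, 180 without SO+ embryo 1, 573 without SO+ embryo 2), between 0 and 2 of the 10 members against 1 (Cnn1), (0 without SO− embryo 1, 2 without SO− embryo 3), and between 0 and 3 of the 60 other actomyosin genes against 1 (Cald1). Limma-voom called 91 genes, 0 members and 0 of the others. DESeq2 called 380 genes, 3 members and 3 of the others. With at least 10 counts required in every embryo, or with all libraries thinned to the smallest, 0 members were called, since Cnn1 no longer entered the test, and thinning left 0 of the others. The remaining scalings and filters kept 1 member and 1 other gene.

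Same-numbered embryos are different animals, and their deviations from the genotype means correlated at 0.008 and 0.115. With the replicate number as a block, edgeR called 929 genes, 3 members (Cnn1, Tagln2, Tpm1) and 6 of the others.

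Cnn1 was between −4.66 and −3.92 on the log2 scale in 12 alternatives and lost its call with limma-voom and without SO− embryo 1. Myl9 ran from −0.17 to 0.94 with embryos left out and was −0.32 with the block. Cnn3 ran from −0.13 to 0.014. Cnn2, Tagln2, Tpm1 and Tpm2 kept their sign in all 14 alternatives, and Tagln2 was called by DESeq2, with the block and without SO− embryo 3. Why the counts differ was not tested beyond the filters named. With a pseudocount of 5, 0 of the 3 genes nearest to Cnn1 and 1 of those nearest to Myl9 were listed again. Depth limits Acta2, Actg2 and Tagln in the SO− embryos, where 3 counts equal up to 2.68 CPM.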
